A study of Mus musculus with 21 samples.

Results

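Tumours that had arisen under a tobacco carcinogen and repeated bacterial lipopolysaccharide (LPS) were compared with non-tumour lung that had received the same LPS course without the carcinogen. The members were picked by their labels, with earlier results of these data known. They are the 3 libraries labelled NNK + LPS, here the tumours, and the 3 libraries labelled LPS, here the LPS lung, 6 of the 21 libraries of the series. All mice were female A/J, a strain prone to lung adenoma, and all tissue was labelled as lung collected at 22 weeks. NNK, a nitrosamine formed from nicotine, was injected into the peritoneum 1 time at 100 mg/kg in NNK_LPS mice, and LPS mice received the vehicle. From 1 week after that injection, both groups received LPS through the nose each week, 5 µg in 50 µL of buffer, until the study ended. The further groups compared below are NNK, with the carcinogen and no LPS, and Control, with neither, each with 3 libraries. The remaining groups of the series had NNK and LPS with silibinin, indole-3-carbinol or both in the diet, each at 20 µmol per g. Their libraries were part of the fit that gave the spread, and their values are not given.

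LPS is a cell wall product of Gram-negative bacteria. It is sensed by the receptor Tlr4 with its partner Cd14 and signals through NF-kB to cytokine and chemokine genes, and through a second branch to type I interferon and the genes that interferon induces. Interferon-gamma, made by T and NK cells, adds the genes of the CXCR3 ligands, guanylate-binding proteins and antigen presentation. Lung tumours induced by NNK in A/J mice often resemble alveolar type 2 cells, the surfactant-making cells of the alveolus.

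Per the labels' protocols, RNA of NNK groups came from lung tumours dissected out and pooled from 3 mice per group, whereas RNA of LPS and Control mice came from normal lung. Tumour tissue and NNK treatment therefore cannot be told apart. Whether each library of a group is 1 mouse or part of a pool is not in the labels, so p-values measure the spread between libraries, which may be technical. In bulk tissue, fewer cells of a type and less RNA per cell cannot be told apart. The time between the last LPS dose and collection is not in the labels. The lung markers Sftpc and Scgb1a1 were abundant in all 6 libraries.

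The LPS lung libraries held 14749381, 15393082 and 15689554 counts and the tumour libraries 15988886, 15707120 and 17471990. Levels are given as CPM, the share of a library's scaled total per 1e6 counts, in the order of replicates 1, 2 and 3, and a difference is a log2 fold change of tumours over LPS lung with its standard error (SE) from n = 3 against 3. A gene was called when its adjusted p from edgeR was under 0.05. Counts of mt-Atp8 divided by those of mt-Atp6, a neighbouring mitochondrial gene, gave a ratio of 0.0222 and 0.0222 in LPS lung 1 and 2, 0.0854 in LPS lung 3, and 0.0782 to 0.0832 in the tumours. LPS lung 3 thus stood with the tumours in this ratio and with the other LPS libraries in expression, with correlations of log2 CPM of 0.986 to 0.988 among the LPS libraries against 0.925 to 0.951 between LPS lung and tumours. Results are also given with a term for library sets, split at ratios of 0.05 and 0.1. Libraries with a ratio of at least 0.1 were all from the diet groups. Further results come from the libraries between 0.05 and 0.1 alone, here called the libraries of the higher ratio. This leaves 1 LPS library against the 3 tumour libraries. LPS was the only group with libraries on both sides of 0.05, and the group with indole-3-carbinol alone had libraries on both sides of 0.1. The fold change with that term therefore in effect sets the tumours against LPS lung 3, and these 2 settings are not separate checks.

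Of 15770 genes tested, 6024 (38.2%) were called, 2722 (17.3%) higher and 3302 (20.9%) lower in tumours than in LPS lung. The called genes with at least a 2-fold difference numbered 1656 (10.5%). The CPM of the 2 groups did not overlap for 7966 genes (50.5%), 3646 (23.1%) with tumours above and 4320 (27.4%) with tumours below. With the term for library set 3979 genes were called, 1556 higher and 2423 lower, and among the libraries of the higher ratio 1839 were called, 634 higher and 1205 lower. The shares of 17.3% and 20.9% are the background against which the counts of each gene group below are read. The gene lists were chosen with earlier results of these data known, so their counts describe the lists and do not test them. The median log2 fold change over all genes tested was -0.02.

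**Figure D1:**
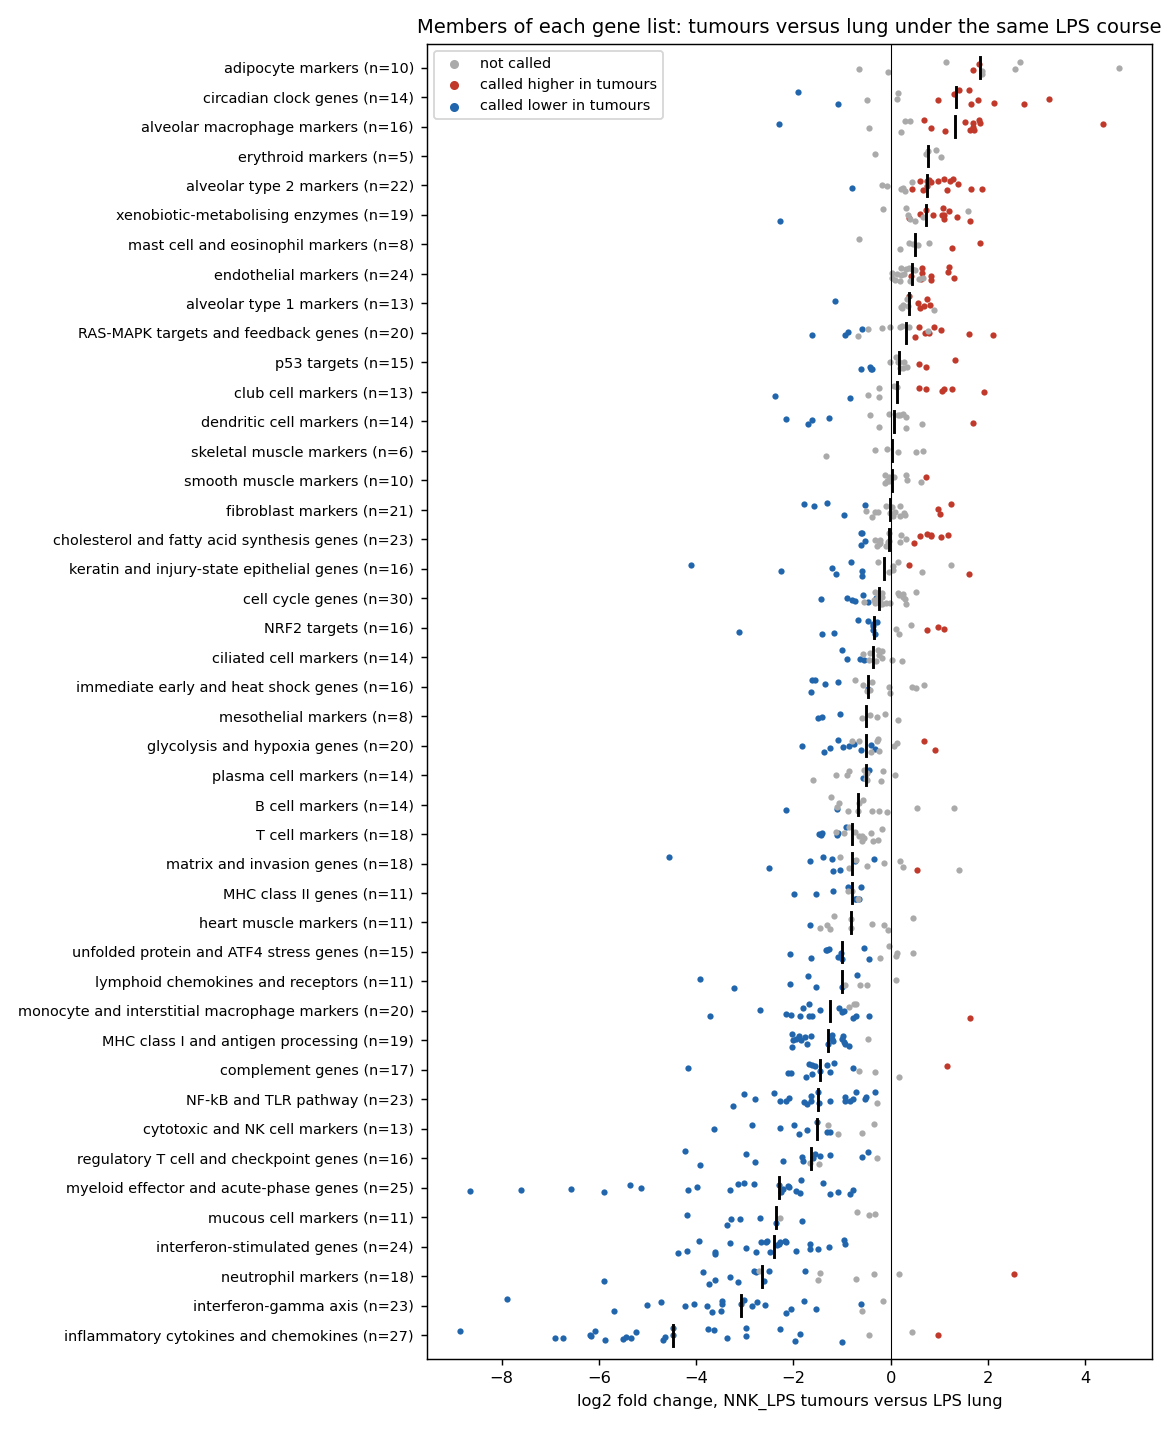
Log2 fold change of NNK_LPS tumours over LPS lung (horizontal axis) for every tested member of 44 gene lists (vertical axis, n is the number tested), with called members in colour and the median of each list as a black bar. Inflammatory cytokines and chemokines lie furthest to the left with 24 of 27 members called lower and a median of -4.47, and alveolar type 2 markers lie to the right with 15 of 22 called higher and a median of 0.75.

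Inflammatory cytokine and chemokine genes were far lower in tumours than in the lung that had received the same LPS course. Of 27 measured members, 24 were called lower and 1 higher, and the median log2 fold change was -4.47. Their summed level was 2361, 2653 and 2708 CPM over the LPS libraries in rising order and 281, 299 and 372 CPM over the tumours. In Control lung it was 263 to 269 CPM, so the tumours' summed range began just above that of lung without LPS. The median log2 fold change of the members in tumours over Control lung was 0.89, with 3 called higher and 0 lower. Il1b, the interleukin that drives fever and neutrophil influx, stood at 488, 408 and 459 CPM in LPS lung and 11.7, 7.74 and 10.2 CPM in tumours, a log2 fold change of -5.51 ± 0.44 (SE, adjusted p = 2.43e-07). Il1rn, its secreted antagonist, stood at 632, 512 and 564 CPM and 20.0, 13.6 and 11.8 CPM, with -5.23 ± 0.26 (SE, adjusted p = 1.72e-09). Agonist and antagonist were thus lower side by side, in every tumour library.

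The chemokines that draw neutrophils through Cxcr2 were among the most different genes of the comparison. Cxcl5 was at 165, 145 and 231 CPM in LPS lung and 1.45, 0.656 and 2.33 CPM in tumours, with a log2 fold change of -6.90 ± 0.92 (SE, adjusted p = 3.19e-05). Cxcl2 was at 80.8, 67.5 and 82.4 CPM and 0.252, 0.722 and 1.14 CPM, with -6.74 ± 0.63 (SE, adjusted p = 9.91e-07). Csf3, the growth factor of neutrophils, gave 564 counts over the LPS libraries and 1 count over the tumours, a ratio of 632 with a 95% counting interval of 113 to 25016. No tumour library reached the lowest LPS library for any of these genes. Il6 was at 23.7, 19.0 and 34.6 CPM and 0.252, 0.459 and 0.341 CPM, with -6.18 ± 0.73 (SE, adjusted p = 7.04e-06). Ccl3, which attracts monocytes, was at 96.5, 103 and 107 CPM and 3.08, 2.43 and 2.05 CPM, with -5.34 ± 0.42 (SE, adjusted p = 1.9e-07). Il6 and Ccl3 were below 4 CPM in every tumour library. Il17a, the cytokine of Th17 and gamma-delta T cells, was also called lower, from low levels of 3.44, 2.39 and 0.808 CPM to 0, 0 and 0.228 CPM (-4.64 ± 0.92 SE, adjusted p = 0.000975).

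There were 3 exceptions in the list. Il18, an interleukin of the IL-1 family, was called higher in tumours, at 19.4, 26.7 and 15.0 CPM against 10.3, 13.8 and 7.07 CPM, with 0.97 ± 0.24 (SE, adjusted p = 0.00474). Il33 (0.44 ± 0.23 SE, adjusted p = 0.145) and Lif (-0.44 ± 0.30 SE, adjusted p = 0.268) were not called. These counts held under the other settings: 24 members were lower on leaving out any library, 22 with the term for library set and 20 with the libraries of the higher ratio alone.

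Promoter sequences are shown for 4 genes of the NF-kB and interferon groups, because motifs known for the factors of these pathways can be read in them. The genes were picked by hand with their expression known. Windows of 250 bases ending just before the annotated start came from RefSeq, build GRCm38.p6, the C57BL/6J reference rather than A/J, and were found for 11944 of the genes tested. The kB motif searched was GGGA, any base, TTTCC, and the interferon response core was GAAA, any 2 bases, GAAA. Each was searched on both strands, matches are in capitals, and 2 of all windows held both motifs. Sequences run 5′ to 3′ on the strand of the gene, and in Rsad2 and Nfkbia the match is on the opposite strand. Cxcl10 lies at chr5:92348890-92349139 (minus strand) and Rsad2 at chr12:26456453-26456702 (minus strand), each with 1 interferon response core. Cxcl2 lies at chr5:90903649-90903898 (plus strand) and Nfkbia at chr12:55492648-55492897 (minus strand), each with 1 kB match.
Cxcl10: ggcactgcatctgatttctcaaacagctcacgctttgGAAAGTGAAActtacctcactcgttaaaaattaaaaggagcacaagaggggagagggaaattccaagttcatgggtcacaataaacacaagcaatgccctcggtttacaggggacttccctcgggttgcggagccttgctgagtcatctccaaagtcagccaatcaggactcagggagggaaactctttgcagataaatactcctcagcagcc
Rsad2: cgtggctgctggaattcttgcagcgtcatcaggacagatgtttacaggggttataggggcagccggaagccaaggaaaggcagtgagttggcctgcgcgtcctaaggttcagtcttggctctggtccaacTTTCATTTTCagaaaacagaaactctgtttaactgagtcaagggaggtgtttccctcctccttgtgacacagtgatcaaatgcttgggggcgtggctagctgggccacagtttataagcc
Cxcl2: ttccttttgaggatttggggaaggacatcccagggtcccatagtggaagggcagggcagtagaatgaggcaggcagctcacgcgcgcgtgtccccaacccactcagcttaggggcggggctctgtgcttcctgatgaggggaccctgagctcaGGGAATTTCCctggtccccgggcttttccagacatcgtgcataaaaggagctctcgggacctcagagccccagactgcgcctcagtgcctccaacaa
Nfkbia: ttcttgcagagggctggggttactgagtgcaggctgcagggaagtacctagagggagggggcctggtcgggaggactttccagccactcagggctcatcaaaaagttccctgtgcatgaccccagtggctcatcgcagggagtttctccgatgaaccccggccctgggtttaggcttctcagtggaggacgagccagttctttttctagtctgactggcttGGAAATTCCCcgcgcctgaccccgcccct

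The kB motif stood in 39 of 11944 windows (0.327%) and in 5 of the 18 windows found for cytokine and chemokine genes (27.8%), those of Csf1, Cxcl1, Cxcl2, Cxcl3 and Il6. All 5 genes were called lower in tumours. In the other lists searched it stood in 2 of 16 windows of the interferon-gamma axis (12.5%), 1 of 16 of MHC class I (6.25%), 1 of 17 of NF-kB and Toll-like receptor signalling (5.88%), 1 of 24 of the cell cycle (4.17%), 0 of 17 of interferon-stimulated genes and 0 of 18 of alveolar type 2 markers. The interferon response core stood in 332 of 11944 windows (2.78%), in 8 of 17 windows of interferon-stimulated genes (47.1%), in 9 of 16 of the interferon-gamma axis (56.2%) and in 0 of 18 of the cytokines and chemokines. It also stood in 3 of 16 windows of MHC class I (18.8%), 1 of 17 of NF-kB and Toll-like receptor signalling (5.88%), 1 of 18 of alveolar type 2 markers (5.56%) and 1 of 24 of the cell cycle (4.17%). A match is a description of the letters and not a bound site, and a window with no match says only that these letters are not in it.

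Interferon-stimulated genes, the antiviral programme downstream of type I interferon, were lower in tumours without exception: all 24 members tested were called lower, with a median of -2.41. Their summed level was 4342, 5082 and 5722 CPM over the LPS libraries and 752, 1081 and 1153 CPM over the tumours. Rsad2, whose product viperin blocks viral replication, stood at 204, 104 and 109 CPM and 9.19, 2.95 and 8.02 CPM, with a log2 fold change of -4.36 ± 0.52 (SE, adjusted p = 1.01e-05). Isg15, a ubiquitin-like antiviral protein, stood at 199, 130.1 and 153 CPM and 15.0, 5.31 and 10.9 CPM, with -3.94 ± 0.46 (SE, adjusted p = 9.03e-06). The tumour levels overlapped with those of lung without LPS: Control lung had 7.13, 6.19 and 4.00 CPM of Rsad2 and 8.34, 9.77 and 12.1 CPM of Isg15. Irf7, the factor that amplifies type I interferon, was lower (-3.61 ± 0.42 SE, adjusted p = 7.01e-06), as was Bst2, which tethers budding virus (-2.16 ± 0.16 SE, adjusted p = 7.26e-08). Leaving out any of the 6 libraries gave 24 members called lower, and the term for library set gave 23.

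Of 23 members of the interferon-gamma axis 21 were called lower, with a median of -3.08. Cxcl9, Cxcl10 and Cxcl11 are the ligands that attract activated T cells through Cxcr3. Cxcl9 stood at 1106, 860.3 and 1121 CPM in LPS lung and 45.4, 22.3 and 27.5 CPM in tumours, with -5.02 ± 0.84 (SE, adjusted p = 0.000217). Cxcl10 stood at 441, 246 and 310.2 CPM and 5.85, 3.48 and 9.84 CPM, with -5.69 ± 0.84 (SE, adjusted p = 7.73e-05). Cxcl11 gave 282 counts over the LPS libraries and 1 over the tumours, a ratio of 316 with a 95% counting interval of 56.3 to 12530. Every tumour library was below every LPS library for the 3 ligands. Ifng itself was low in LPS lung, 10.1, 5.60 and 4.78 CPM, and lower in tumours, 0.566, 0.197 and 0.797 CPM, with -3.67 ± 0.67 (SE, adjusted p = 0.000372). Gbp2, a guanylate-binding protein that attacks vacuoles of pathogens, stood at 1370.5, 943 and 1225 CPM and 117, 74.1 and 123 CPM (-3.49 ± 0.37 SE, adjusted p = 3.2e-06), although reads of the related Gbp genes may be shared. Socs1, the feedback inhibitor of this pathway, was also lower (-3.78 ± 0.43 SE, adjusted p = 5.64e-06). The receptor gene Ifngr1 (-0.15 ± 0.11 SE, adjusted p = 0.312) and the chemokine receptor gene Cxcr3 (-0.58 ± 0.40 SE, adjusted p = 0.262) were not called.

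Antigen presentation genes were lower too, and their summed level stayed above that of Control lung in every tumour. Of 19 genes of MHC class I presentation 18 were called lower, with a median of -1.29. Their summed level was 17957, 18676 and 21216 CPM in LPS lung, 7759.6, 8667 and 9501 CPM in tumours and 3323 to 4629 CPM in Control lung. Tap1, which pumps peptides into the endoplasmic reticulum, stood at 573, 459 and 566 CPM and 149.6, 100.4 and 140.1 CPM, with -2.03 ± 0.38 (SE, adjusted p = 0.00051). Psme2, a proteasome activator subunit, stood at 422, 354 and 478 CPM and 105, 87.1 and 116 CPM, with -2.02 ± 0.14 (SE, adjusted p = 5.26e-08). B2m, the invariant light chain, stood at 5067, 5440.5 and 5999 CPM and 2563, 2177 and 2550.0 CPM (-1.18 ± 0.16 SE, adjusted p = 2.4e-05). The groups did not overlap for these 3 genes. Of 11 MHC class II genes 8 were called lower, among them the class II transactivator Ciita at 132, 95.4 and 114 CPM and 46.1, 32.1 and 38.6 CPM (-1.54 ± 0.37 SE, adjusted p = 0.00342). The class II count was 5 without LPS lung 3 and 5 without tumour 3. Reads of the H2 genes may be shared between near-identical copies.

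**Figure D2:**
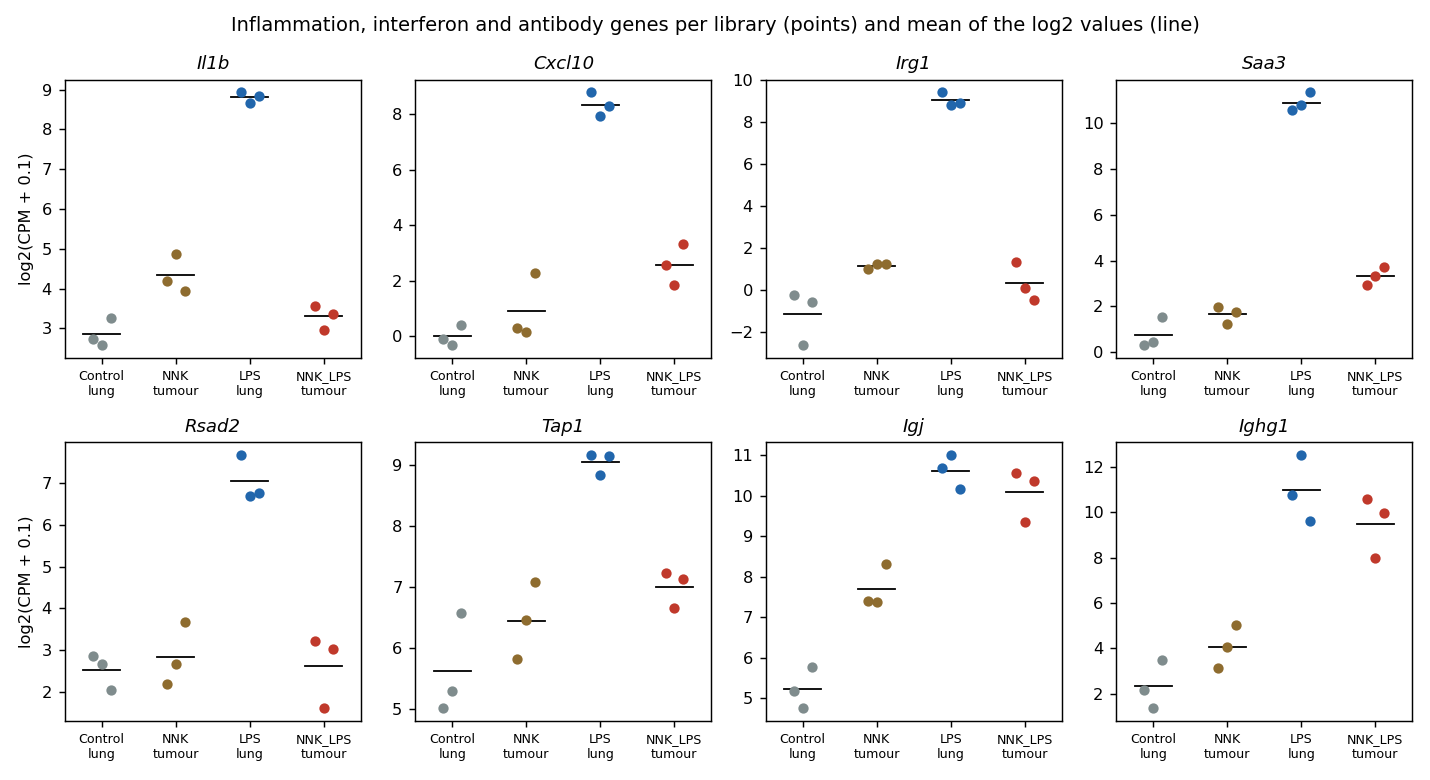
Level per library (points) as log2(CPM + 0.1) and the mean of the 3 log2 values (line) for 8 genes of inflammation, interferon response, antigen presentation and antibody in Control lung, NNK tumours, LPS lung and NNK_LPS tumours. For Il1b, Cxcl10, Irg1, Saa3, Rsad2 and Tap1 the LPS lung libraries lie above all other libraries shown, while for the antibody genes Igj and Ighg1 LPS lung and NNK_LPS tumours overlap.

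Sensing and feedback genes of the pathway were lower as well. Of 23 genes of NF-kB and Toll-like receptor signalling, 22 were called lower, with a median of -1.5. Tlr2, the receptor for bacterial lipoproteins, stood at 252, 214 and 249 CPM and 51.7, 61.3 and 48.8 CPM, with -2.14 ± 0.18 (SE, adjusted p = 2.68e-07). Cd14, which hands LPS to Tlr4, was lower (-3.01 ± 0.38 SE, adjusted p = 1.63e-05), and so was Tlr4 itself (-0.52 ± 0.10 SE, adjusted p = 0.000435). Inhibitors of the pathway were lower as well: Nfkbia stood at 307, 278 and 356 CPM and 107, 89.6 and 105 CPM (-1.64 ± 0.27 SE, adjusted p = 0.000185), and Tnfaip3 at 279.9, 259 and 329 CPM and 45.7, 38.7 and 41.8 CPM (-2.78 ± 0.36 SE, adjusted p = 1.89e-05). Receptors and inhibitors were thus lower together, and Irak4 (-0.28 ± 0.13 SE, adjusted p = 0.11) was the member not called.

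Myeloid effector and acute-phase genes were lower throughout. All 25 members tested were called lower, with a median of -2.29 and a summed level of 19554 to 23561 CPM in LPS lung against 3332 to 4190.4 CPM in tumours. Irg1 (now Acod1), which makes the antibacterial metabolite itaconate in activated macrophages, stood at 690.1, 451 and 478 CPM and 2.45, 0.984 and 0.626 CPM, with -8.65 ± 0.82 (SE, adjusted p = 1.37e-06). Saa3, a serum amyloid protein made locally in inflamed tissue, stood at 1526, 1771 and 2628 CPM and 7.62, 10.0 and 13.0 CPM, with -7.59 ± 0.93 (SE, adjusted p = 1.41e-05). Nos2, the inducible nitric oxide synthase, stood at 609, 405 and 620.2 CPM and 10.8, 8.33 and 20.7 CPM, with -5.35 ± 0.40 (SE, adjusted p = 1.32e-07). Each LPS library was far above each tumour library for these 3 genes, with no overlap. Orm1 and Orm2, plasma carriers of the acute phase, were lower, with -5.13 ± 0.45 (SE, adjusted p = 5.11e-07) and -6.91 ± 0.45 (SE, adjusted p = 2.04e-08). With the term for library set 23 of the list's members were called, and with the libraries of the higher ratio alone 17.

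Of 17 complement genes 13 were called lower and 1 higher. Cfb, factor B of the alternative pathway, stood at 2325, 2214 and 2799.8 CPM and 163, 109.6 and 138 CPM, with -4.16 ± 0.39 (SE, adjusted p = 1.03e-06), and C3 at 5172, 5010.3 and 5785 CPM and 1380.1, 957 and 1339 CPM, with -2.12 ± 0.26 (SE, adjusted p = 1.03e-05). The member called higher was Hc, the gene of C5, by 1.16 ± 0.25 (SE, adjusted p = 0.00147). This value is for RNA, and C5 protein was not measured. Cd55, which restrains complement, was not called (0.17 ± 0.14 SE, adjusted p = 0.359). The count called lower was 6 with the libraries of the higher ratio alone.

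Markers of recruited leukocytes were lower, with exceptions. Of 18 neutrophil markers tested 11 were called lower and 1 higher, with a median of -2.65. Csf3r, the receptor for the neutrophil growth factor, stood at 214, 161 and 218 CPM and 41.0, 27.6 and 19.0 CPM, with -2.76 ± 0.48 (SE, adjusted p = 0.000318). S100a9, a calprotectin subunit stored in neutrophils, stood at 417, 429 and 501 CPM and 83.9, 40.0 and 13.3 CPM, with -3.30 ± 0.93 (SE, adjusted p = 0.0104). Genes of the granules made in the marrow, Ltf (-1.46 ± 1.00 SE, adjusted p = 0.268), Ngp (-1.5 ± 1.08 SE, adjusted p = 0.288) and Mmp8 (-0.72 ± 0.65 SE, adjusted p = 0.404), were not called. Camp, another granule gene, was called lower, with 43 counts over the LPS libraries and 3 over the tumours, a ratio of 16.1 with a 95% counting interval of 5.14 to 81.0. Cxcr1 went the other way, at 16.4, 31.9 and 15.4 CPM in tumours against 2.29, 7.51 and 1.21 CPM in LPS lung (2.53 ± 0.47 SE, adjusted p = 0.000518). For Ltf, Ngp and Mmp8 the groups overlapped, and for Csf3r, S100a9, Camp and Cxcr1 they did not. The count called lower was 5 with the libraries of the higher ratio alone.

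Of 20 markers of monocytes and interstitial macrophages 16 were called lower and 1 higher. Plac8, expressed in classical monocytes, stood at 255, 169 and 256 CPM and 34.8, 28.2 and 42.9 CPM, with -2.68 ± 0.24 (SE, adjusted p = 6.88e-07). Emr1, which encodes the macrophage antigen F4/80, stood at 223, 197 and 214 CPM and 65.4, 69.3 and 48.2 CPM, with -1.80 ± 0.18 (SE, adjusted p = 1.12e-06). The count called lower was 8 with the libraries of the higher ratio alone.

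Alveolar macrophage markers were higher in tumours than in LPS lung: 11 of 16 tested were called higher and 1 lower, with a median of 1.32. Against Control lung, 3 were called higher and 9 lower in LPS lung, with a median of -0.86. In tumours 4 were called higher and 2 lower than in Control lung, with a median of 0.02. Fabp1, a fatty acid carrier found in alveolar macrophages as well as in liver, stood at 0.502, 0.614 and 0.337 CPM in LPS lung and 10.1, 11.8 and 8.25 CPM in tumours, with 4.36 ± 0.45 (SE, adjusted p = 1.89e-06). Ear2, an eosinophil-associated ribonuclease also made by these macrophages, stood at 65.9, 69.0 and 40.0 CPM and 178, 254 and 143 CPM, with 1.72 ± 0.29 (SE, adjusted p = 0.000213). Pparg, the nuclear receptor that sets their identity, stood at 9.46, 12.8 and 8.42 CPM and 19.7, 28.2 and 18.7 CPM, with 1.12 ± 0.18 (SE, adjusted p = 0.000103). For all 3 genes the tumour libraries were above the LPS libraries without overlap. Mrc1, the mannose receptor, was higher by 1.63 ± 0.24 (SE, adjusted p = 7.52e-05), and is also the member of the monocyte and macrophage list that was higher. Marco, a scavenger receptor, was the member called lower, at 44.6, 53 and 82.5 CPM and 14.4, 11.2 and 11.2 CPM (-2.29 ± 0.47 SE, adjusted p = 0.00118). LPS lung 3 was the lowest library for Fabp1, Ear2 and Pparg, and without it 6 members were called higher and 2 lower.

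Of 18 T cell markers 6 were called lower, against 20.9% of all genes. Il7r, the receptor for the survival cytokine IL-7, stood at 59.4, 81.0 and 67.0 CPM and 33.9, 22.7 and 21.7 CPM (-1.41 ± 0.33 SE, adjusted p = 0.00309). Cd3e, of the T cell receptor complex, was not called, at 10.5, 9.49 and 12.3 CPM and 9.31, 5.84 and 9.05 CPM (-0.41 ± 0.40 SE, adjusted p = 0.436). The T cell count is 2 without LPS lung 3, 2 without tumour 2, 3 with the term for library set and 1 with the libraries of the higher ratio alone. Of 13 cytotoxic and NK cell markers tested 9 were called lower, among them Gzmb, a killing protease, at 19.8, 9.76 and 14.5 CPM and 1.32, 0.918 and 3.76 CPM (-2.85 ± 0.56 SE, adjusted p = 0.000759). That count is 5 without tumour 2 and 5 with the libraries of the higher ratio alone.

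Of 16 genes of regulatory T cells and immune checkpoints 13 were called lower. Cd274, which encodes the checkpoint ligand PD-L1, stood at 736, 444 and 610.4 CPM and 88.9, 79.0 and 90.3 CPM, with -2.79 ± 0.31 (SE, adjusted p = 4.87e-06). Ido1, which degrades tryptophan, stood at 58.2, 34.4 and 38.2 CPM and 2.01, 0.984 and 3.87 CPM, with -4.23 ± 0.55 (SE, adjusted p = 2.11e-05). Il2ra, a receptor chain of regulatory and activated T cells, was lower (-1.55 ± 0.28 SE, adjusted p = 0.000309). Pdcd1, which encodes PD-1, was not called (-1.67 ± 0.69 SE, adjusted p = 0.0665). In each tumour library Cd274 nevertheless exceeded every Control library, which stood at 31.9, 30.7 and 51.3 CPM.

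Antibody genes were far above Control lung in LPS lung and in tumours. Of 14 plasma cell markers 2 were called lower and 0 higher, and neither of those 2, Xbp1 (-0.44 ± 0.14 SE, adjusted p = 0.0172) and Prdm1 (-0.57 ± 0.21 SE, adjusted p = 0.0423), is an antibody gene. Both lost the call with the term for library set (adjusted p = 0.329 and 0.697), and on leaving out LPS lung 1 (0.0547 and 0.245), LPS lung 2 (0.0676 and 0.0654) or tumour 2 (0.0788 and 0.156), and Prdm1 also without tumour 3 (0.0931), in a fit to the 2 groups alone (0.0875) and with a replicate block (0.0519). Igj (now Jchain), the chain that joins IgA and IgM into polymers, stood at 1645, 2047 and 1137 CPM in LPS lung and 1495, 652 and 1306 CPM in tumours, against 36.0, 27.0 and 54.0 CPM in Control lung. Ighg1, the constant region of IgG1, stood at 1746, 5860.4 and 789.7 CPM and 1510.1, 249.8 and 996 CPM, against 4.40, 2.49 and 11.1 CPM. For both genes the LPS and tumour libraries overlapped, the log2 fold changes of -0.48 ± 0.53 (SE, adjusted p = 0.499) and -1.61 ± 1.04 (SE, adjusted p = 0.239) were not called, and every library of both groups was above every Control library. Of 160 immunoglobulin variable segments tested, 1 was called higher and 8 lower in tumours than in LPS lung, with a median of -0.40.

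B cell markers had wide spreads, and 2 of 14 tested were called lower. Those were Fcer2a, the low-affinity IgE receptor (-2.15 ± 0.69 SE, adjusted p = 0.0219), and Cd37 (-1.11 ± 0.39 SE, adjusted p = 0.0339). Without tumour 2 neither was called, with adjusted p = 0.0882 and 0.137, and with the term for library set neither was called either, with 0.096 and 0.174. Cd37 also lost the call on leaving out any 1 LPS library (adjusted p = 0.0817, 0.0548 and 0.0654 without LPS lung 1, 2 and 3) and with no filter on low counts (0.0596). Ighm, the constant region of IgM, stood at 551, 171 and 3117 CPM in tumours, with tumour 3 far above the others, and at 591, 542 and 436 CPM in LPS lung. Of 11 genes of lymphoid chemokines and their receptors 7 were called lower, 2 with the libraries of the higher ratio alone. Cxcl13, which attracts B cells into follicles, stood at 191, 223 and 192 CPM and 24.5, 18.1 and 22.7 CPM, with -3.21 ± 0.72 (SE, adjusted p = 0.00235).

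The tumours carried more transcript of alveolar type 2 genes than the LPS lung. Of 22 markers tested 15 were called higher and 1 lower, with a median of 0.75, and the summed level was 38031, 43328 and 46296 CPM over the LPS libraries and 69445, 83993 and 94889.7 CPM over the tumours. Sftpc, the surfactant protein made by these cells alone in the lung, stood at 9451, 9321 and 6208 CPM and 29532, 36179 and 26165 CPM, with 1.88 ± 0.19 (SE, adjusted p = 1.35e-06). Sftpb stood at 2889, 2566 and 2325 CPM and 8748, 8921 and 6607 CPM, with 1.64 ± 0.13 (SE, adjusted p = 1.27e-07). Lpcat1, which makes surfactant lipid, stood at 394, 446 and 349.8 CPM and 997, 1091 and 1014 CPM, with 1.38 ± 0.13 (SE, adjusted p = 7.39e-07). The groups did not overlap for these 3 genes. Chi3l1, a chitinase-like protein that inflammation raises, was the member called lower (-0.79 ± 0.20 SE, adjusted p = 0.00575), and Sftpd (-0.17 ± 0.18 SE, adjusted p = 0.473), Lyz2 (0.24 ± 0.17 SE, adjusted p = 0.268) and Lamp3 (0.28 ± 0.16 SE, adjusted p = 0.166) were not called. Between 15 and 16 members were called higher on leaving out any library, and 12 with the term for library set.

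Other epithelial markers did not all follow. Of 13 alveolar type 1 markers 6 were called higher, among them the water channel Aqp5 (0.81 ± 0.15 SE, adjusted p = 0.000496), and Pdpn was called lower (-1.14 ± 0.18 SE, adjusted p = 9.22e-05). The number called higher is 3 without LPS lung 2, without LPS lung 3 or without tumour 3, and 2 with the term for library set. Against Control lung, 1 alveolar type 1 marker was called higher and 12 lower in LPS lung, with a median of -0.86. In tumours 0 were called higher and 3 lower than in Control lung, with a median of -0.41. Of 13 club cell markers 6 were called higher and 2 lower. Cbr2, a carbonyl reductase of club cells, stood at 1474, 1107 and 1242 CPM and 2872, 3139 and 3154 CPM, with 1.26 ± 0.14 (SE, adjusted p = 2.51e-06), and Cyp2f2, the cytochrome that bioactivates naphthalene, was higher by 1.09 ± 0.16 (SE, adjusted p = 4.79e-05). Scgb1a1, the secretoglobin that defines club cells, was not called, at 14296, 13523 and 10705 CPM and 13516, 10819.5 and 18075 CPM (0.14 ± 0.19 SE, adjusted p = 0.6). With the libraries of the higher ratio alone 3 club cell markers were called higher.

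Mucous cell genes were lower: 7 of 11 were called lower and 0 higher, with a median of -2.35. Muc5b, an airway mucin, stood at 297, 399 and 344 CPM and 124, 13.7 and 22.9 CPM, with -2.69 ± 0.70 (SE, adjusted p = 0.00622). Tumour 1 was well above the other tumours for this gene and still below every LPS library. Agr2, needed to fold mucins, stood at 6.52, 11.7 and 10.2 CPM and 2.39, 0.197 and 0.740 CPM (-3.09 ± 0.55 SE, adjusted p = 0.000331), and Pigr, which carries polymeric antibody across epithelium, at 1011, 1128 and 1212 CPM and 255, 136 and 266 CPM (-2.35 ± 0.29 SE, adjusted p = 1.11e-05). With the libraries of the higher ratio alone 2 of the 7 were called. Of 14 ciliated cell markers 4 were called lower, including their master factor Foxj1 (-1.01 ± 0.25 SE, adjusted p = 0.00418). That count is 2 without LPS lung 3, 2 without tumour 2, 7 without tumour 1 and 1 with the libraries of the higher ratio alone. Of 16 tested genes of keratins and epithelial injury states 7 were called lower and 2 higher (1 without tumour 2), with the tight junction gene Cldn4 lower (-2.25 ± 0.34 SE, adjusted p = 7.69e-05) and Krt8 not called (-0.25 ± 0.18 SE, adjusted p = 0.28).

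**Figure D3:**
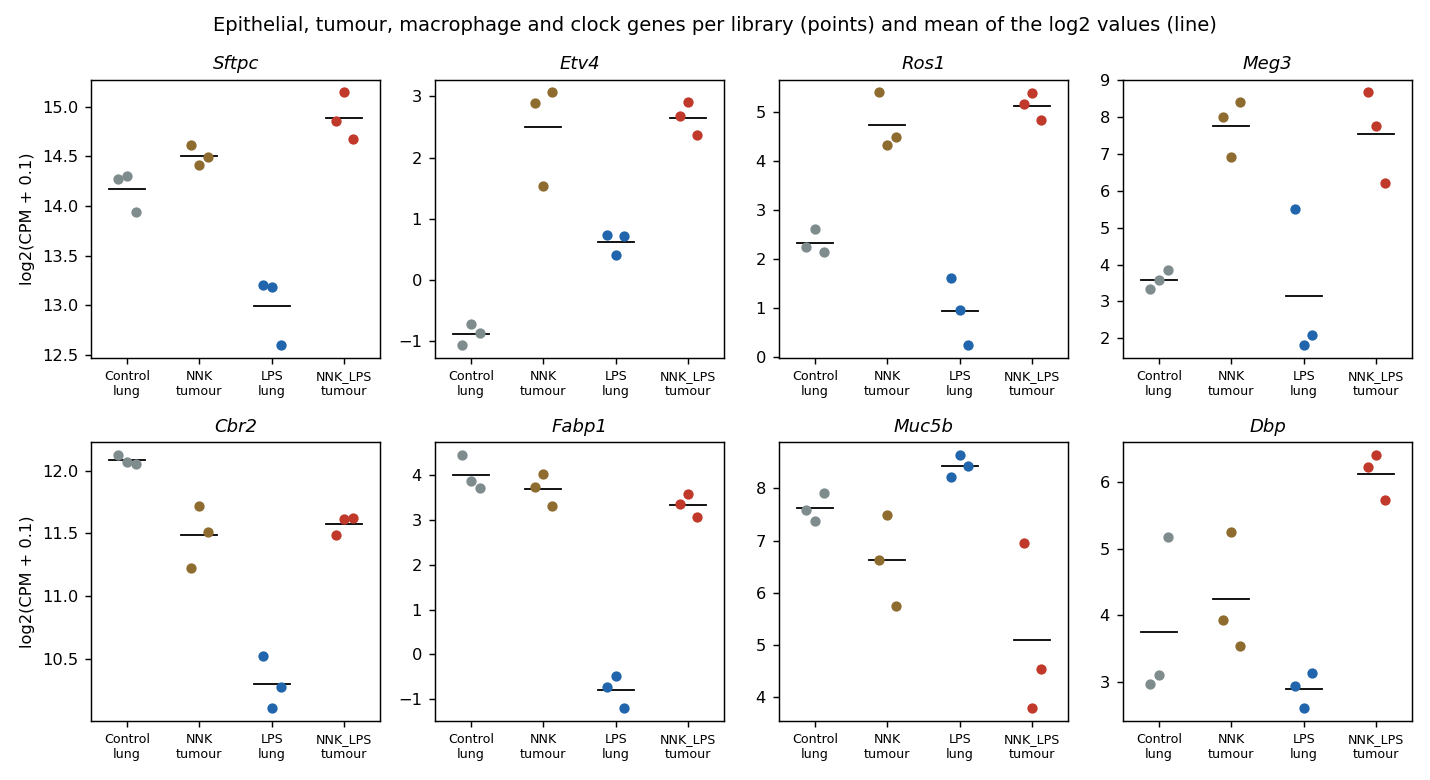
Level per library (points) as log2(CPM + 0.1) and the mean of the 3 log2 values (line) for 8 genes of epithelium, tumour, macrophage and clock in Control lung, NNK tumours, LPS lung and NNK_LPS tumours. Etv4 and Ros1 are higher in both tumour groups than in the matching lung without overlap, Sftpc, Cbr2 and Fabp1 are lowest in LPS lung, and Dbp is highest in NNK_LPS tumours.

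Several genes were nearly silent or low in LPS lung and readily counted in tumours. Spag11b (chr8:19140759-19143010), an epididymal beta-defensin-like gene, had 0 counts in LPS lung and 4.41, 7.67 and 5.35 CPM in the tumours, at least 83.6-fold higher against a floor of 3 counts over the LPS libraries. Npy2r (chr3:82538383-82548989), a neuropeptide Y receptor, gave 106 counts over the tumours and 1 over the LPS libraries, a ratio of 94.6 with a 95% counting interval of 16.6 to 3770. Neither gene had more than 1 count in Control lung, and both were counted in every NNK tumour, Npy2r at 6.62, 4.92 and 2.37 CPM. Ros1 (chr10:52044863-52195398), a receptor tyrosine kinase, stood at 2.94, 1.84 and 1.08 CPM in LPS lung and 36.2, 41.9 and 28.6 CPM in tumours, with 4.19 ± 0.44 (SE, adjusted p = 2.7e-06). Tmem213, a small membrane protein gene, stood at 0.788, 0.273 and 0.404 CPM and 15.7, 22.5 and 4.95 CPM, with 4.87 ± 0.60 (SE, adjusted p = 1.04e-05). Bex2 stood at 2.01, 1.09 and 1.48 CPM and 27.2, 30.5 and 27.8 CPM, with 4.22 ± 0.53 (SE, adjusted p = 1.63e-05). The 3 tumours were close to each other for Bex2. Control lung had 16.8, 17.0 and 9.94 CPM of it, so LPS lung was the low group.

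Some of the genes with the highest folds varied widely among tumours. Kng2, a kininogen gene, stood at 37.6, 13.6 and 0.854 CPM in tumours and 0.502, 0.341 and 0.741 CPM in LPS lung (5.01 ± 1.40 SE, adjusted p = 0.0102), and the call was lost without tumour 1 (log2 fold change 3.74, adjusted p = 0.0504) and with the term for library set (4.53, adjusted p = 0.164). Meg3 (chr12:109540996-109571729), Rian (chr12:109603945-109661716) and Mirg (chr12:109734981-109749458) are long noncoding RNA genes of the imprinted region shared with Dlk1, expressed from the maternal chromosome. Meg3 stood at 409, 217 and 74.0 CPM in tumours and 45.2, 3.41 and 4.17 CPM in LPS lung (3.73 ± 0.84 SE, adjusted p = 0.00249), Rian at 151, 67.4 and 24.4 CPM and 18.5, 2.39 and 3.23 CPM (3.34 ± 0.74 SE, adjusted p = 0.0022), and Mirg at 9.44, 3.08 and 1.42 CPM and 0.788, 0.0683 and 0.0673 CPM (3.91 ± 0.84 SE, adjusted p = 0.00161). For all 3 genes tumour 1 was the highest and tumour 3 the lowest of the tumours, LPS lung 1 was the highest LPS library, and the groups did not overlap. In a fit to the 2 groups alone Meg3 and Rian were not called (adjusted p = 0.0782 and 0.0668), and with the libraries of the higher ratio alone Meg3, Rian and Mirg were not called (0.0531, 0.0938 and 0.111).

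Genes controlled by RAS and MAP kinase signalling were more often called higher than lower. Of 20 members 8 were called higher, against 17.3% of all genes, and 4 lower, with a median of 0.31. The share called lower is near the 20.9% of all genes. Etv4, an ETS factor induced by ERK, stood at 1.58, 1.23 and 1.55 CPM and 6.29, 7.41 and 5.06 CPM, with 2.10 ± 0.36 (SE, adjusted p = 0.000231). Areg, a ligand of the EGF receptor, stood at 8.39, 11.3 and 12.1 CPM and 22.9, 57.5 and 17.6 CPM, with 1.62 ± 0.45 (SE, adjusted p = 0.00927), and Spred2, an inhibitor of the pathway, was higher by 0.57 ± 0.11 (SE, adjusted p = 0.000748). The immediate early gene Egr1 was lower, at 80.0, 54.3 and 86.2 CPM and 21.7, 31.0 and 18.8 CPM (-1.63 ± 0.35 SE, adjusted p = 0.0016), and Dusp6, another feedback gene, was not called (-0.01 ± 0.15 SE, adjusted p = 0.978). The number called higher is 5 without tumour 2, 5 with the term for library set and 1 with the libraries of the higher ratio alone. Of 15 p53 targets 3 were called higher and 4 lower, and Cdkn1a was not called (0.27 ± 0.37 SE, adjusted p = 0.598).

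Enzymes that handle xenobiotics were higher in tumours than in LPS lung, with 11 of 19 tested called higher and 1 lower and a median of 0.73. Ephx1, an epoxide hydrolase, stood at 92.0, 85.5 and 77.4 CPM and 186, 190.2 and 211 CPM, with 1.20 ± 0.08 (SE, adjusted p = 4.29e-08). Ces1d, a carboxylesterase, stood at 286, 255 and 203 CPM and 508, 555 and 526 CPM, with 1.09 ± 0.13 (SE, adjusted p = 6.62e-06). Cyp1b1, an oxidase of polycyclic hydrocarbons, was the member called lower, at 58.3, 59.3 and 77.4 CPM and 18.3, 9.97 and 12.2 CPM (-2.27 ± 0.32 SE, adjusted p = 4.52e-05). The summed level of these enzymes was 3611 to 4036 CPM in LPS lung, 6520.5 to 7162 CPM in tumours and 9969 to 10862 CPM in Control lung, so the tumours lay between them. With the libraries of the higher ratio alone 7 were called higher. Cyp2e1, an oxidase of small solvents and nitrosamines, was higher by 1.64 ± 0.46 (SE, adjusted p = 0.00929) and lost the call without LPS lung 3 (log2 fold change 1.34, adjusted p = 0.0523).

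Targets of the oxidant-response factor NRF2 were more often lower: 10 of 16 were called lower and 3 higher. Slc7a11, the cystine importer, stood at 129, 117 and 129.9 CPM and 18.6, 13.6 and 11.2 CPM, with -3.12 ± 0.36 (SE, adjusted p = 7.11e-06), and Hmox1, the haem oxygenase, at 207, 213 and 255 CPM and 91.1, 90.8 and 73.2 CPM, with -1.40 ± 0.12 (SE, adjusted p = 2.4e-07). Gstm1, a glutathione transferase that is also a drug-metabolising enzyme, was higher by 1.10 ± 0.14 (SE, adjusted p = 1.42e-05). Of 20 genes of glycolysis and hypoxia 10 were called lower and 2 higher (1 without LPS lung 2, LPS lung 3, tumour 2 or tumour 3), with Slc16a3, the lactate exporter, lower (-1.82 ± 0.23 SE, adjusted p = 1.17e-05) and Eno1, whose reads may be shared with its processed copies, also lower (-1.08 ± 0.12 SE, adjusted p = 2.36e-06). Of 23 genes of cholesterol and fatty acid synthesis 7 were called higher and 4 lower. Acly (0.60 ± 0.10 SE, adjusted p = 0.000113), Acaca (0.82 ± 0.13 SE, adjusted p = 0.000124) and Scd1 (1.17 ± 0.23 SE, adjusted p = 0.000737) of fatty acid synthesis were higher, and Sqle (-0.54 ± 0.12 SE, adjusted p = 0.00185) and Cyp51 (-0.59 ± 0.13 SE, adjusted p = 0.00172) of cholesterol synthesis were lower. With the libraries of the higher ratio alone 3 NRF2 targets were called lower, and of the lipid genes 3 were called higher and 0 lower.

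Of 30 cell cycle genes 0 were called higher and 7 lower, with a median of -0.24, and the share called lower is near the 20.9% of all genes. Mki67 stood at 81.6, 87.8 and 66.6 CPM and 46.6, 50.3 and 38.2 CPM (-0.81 ± 0.20 SE, adjusted p = 0.0048), and Mcm5, a subunit of the replication helicase, at 35.2, 33.7 and 32.5 CPM and 18.7, 19.7 and 16.4 CPM (-0.89 ± 0.12 SE, adjusted p = 1.59e-05). Top2a (-0.56 ± 0.23 SE, adjusted p = 0.0696) was not called, and 1 member was called higher without tumour 3. With the libraries of the higher ratio alone 2 members were called lower. Of 15 genes of the unfolded protein and ATF4 stress responses 10 were called lower, with the chaperone Calr at 1242, 1344 and 1485 CPM and 571, 506 and 533 CPM (-1.34 ± 0.10 SE, adjusted p = 7.26e-08). Of 16 immediate early and heat shock genes 6 were called lower, with Junb at 206, 189.9 and 211 CPM and 76.4, 71.4 and 59.7 CPM (-1.55 ± 0.22 SE, adjusted p = 4.8e-05) and Fos not called (-0.48 ± 0.28 SE, adjusted p = 0.187).

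Of 21 fibroblast markers 5 were called lower and 3 higher, with a median of -0.02, and the share called lower is near that of all genes. The 5 were Col1a1, Col1a2, Col3a1, Col5a1 and Col6a2, while Col6a1 was not called (0.03 ± 0.15 SE, adjusted p = 0.907). Col3a1, a fibrillar collagen, stood at 1017, 1194 and 1425 CPM and 336, 285 and 443 CPM, with -1.77 ± 0.22 (SE, adjusted p = 1.08e-05), and Col1a2 at 398, 457 and 637 CPM and 220.0, 170.5 and 211 CPM, with -1.31 ± 0.19 (SE, adjusted p = 3.97e-05). Npnt, a matrix protein gene (1.02 ± 0.13 SE, adjusted p = 8.89e-06), and Inmt, a methyltransferase gene (1.23 ± 0.20 SE, adjusted p = 0.000139), were higher. Of 18 genes of matrix remodelling tested 9 were called lower and 1 higher, and 4 lower with the term for library set and 3 with the libraries of the higher ratio alone. Timp1, the inhibitor of matrix metalloproteinases that inflammation induces, stood at 201, 160.3 and 212 CPM and 7.43, 7.02 and 9.79 CPM, with -4.56 ± 0.26 (SE, adjusted p = 5.5e-09). Its relative Timp2 was the member called higher (0.55 ± 0.10 SE, adjusted p = 0.000513).

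Of 24 endothelial markers 9 were called higher and 0 lower, with a median of 0.43. Ednrb, an endothelin receptor of alveolar capillaries, stood at 27.0, 21.1 and 13.9 CPM and 40.0, 45.3 and 67.1 CPM, with 1.30 ± 0.31 (SE, adjusted p = 0.00363), and Ptprb, a vascular phosphatase, was higher by 1.18 ± 0.26 (SE, adjusted p = 0.00182). The count is 5 without LPS lung 3, 5 without tumour 3 and 5 with the term for library set, and with the libraries of the higher ratio alone it is 4. Both groups were below Control lung in summed level, 3387 to 3941 and 3866 to 6438 CPM against 7938 to 8336 CPM. Of 8 mesothelial markers 3 were called lower, including Wt1 (-1.49 ± 0.33 SE, adjusted p = 0.00202).

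Markers of heart, skeletal muscle, fat and red blood cells were compared as well. Heart muscle genes summed to 107 to 154 CPM in LPS lung and 89.3 to 169.7 CPM in tumours, and 1 of 11 was called, Mybpc3 (lower, -1.66 ± 0.40 SE, adjusted p = 0.0036). Without tumour 1 the count is 4 lower. Skeletal muscle genes summed to 5.88 to 6.46 CPM and 3.61 to 9.19 CPM, with 0 of 6 called. Fat cell genes summed to 14.3 to 31.3 CPM and 29.6 to 101 CPM, and the 2 of 10 that were called higher, Cidec and Fabp4, are also on the alveolar macrophage list. The defining fat gene Adipoq stood at 0.0717, 0.410 and 0.269 CPM and 4.34, 0 and 0.228 CPM and was not called. Without LPS lung 3 neither Cidec (adjusted p = 0.0565) nor Fabp4 (0.0679) was called, and Fabp4 also lost the call without LPS lung 1 (0.0572), without tumour 1 (0.0525) and with the term for library set (0.0622). Of 5 erythroid genes tested 0 were called, and they summed to 423 to 1018 CPM and 868 to 2188 CPM.

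Clock genes differed between the groups. Of 14 members 9 were called higher and 2 lower in tumours. Dbp, an output factor of the clock, stood at 7.60, 6.01 and 8.69 CPM and 75.0, 84.6 and 53.3 CPM, with 3.25 ± 0.72 (SE, adjusted p = 0.00219). Per3, of the repressing arm, stood at 9.03, 11.1 and 10.2 CPM and 64.7, 92.8 and 45.0 CPM, with 2.74 ± 0.43 (SE, adjusted p = 0.00012). Arntl and Npas2, of the activating arm, were lower, with -1.09 ± 0.30 (SE, adjusted p = 0.00908) and -1.91 ± 0.49 (SE, adjusted p = 0.00559). Dbp and Per3 were thus higher while Arntl and Npas2 were lower, without overlap between the 6 libraries for these 4 genes. Arntl and Npas2 were the only members called lower, and 3 of the 14 were not called. With the term for library set 5 were called higher and with the libraries of the higher ratio alone 3. The hour of collection is not in the labels, and its part in these values was not tested.

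The same tumour-to-lung comparison was made without LPS, from the NNK tumours and Control lung, which share no library with the comparison above. That comparison called 2064 of 15770 genes (13.1%), 1019 (6.46%) higher and 1045 (6.63%) lower, and the count fell on leaving out 1 library, with 490 called without NNK 1, 502 without Control 2, 874 without Control 1 and 1058 without NNK 3. Of the genes called in either comparison 1029 were called in both, 677 in the same direction, which is 11.2% of the 6024 and 32.8% of the 2064. Another 352 were called in both with opposite directions, 236 of them lower in NNK_LPS tumours than in LPS lung and higher in NNK tumours than in Control lung. The difference of the 2 tumour-to-lung differences was called for 3955 genes (25.1%), 1690 (10.7%) higher and 2265 (14.4%) lower, and 3109 of the 6024 genes (51.6%) were among them. All NNK and Control libraries had the lower mt-Atp8 ratio and all NNK_LPS tumours the higher, and with the term for library set the difference was called for 3005 genes.

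**Figure D4:**
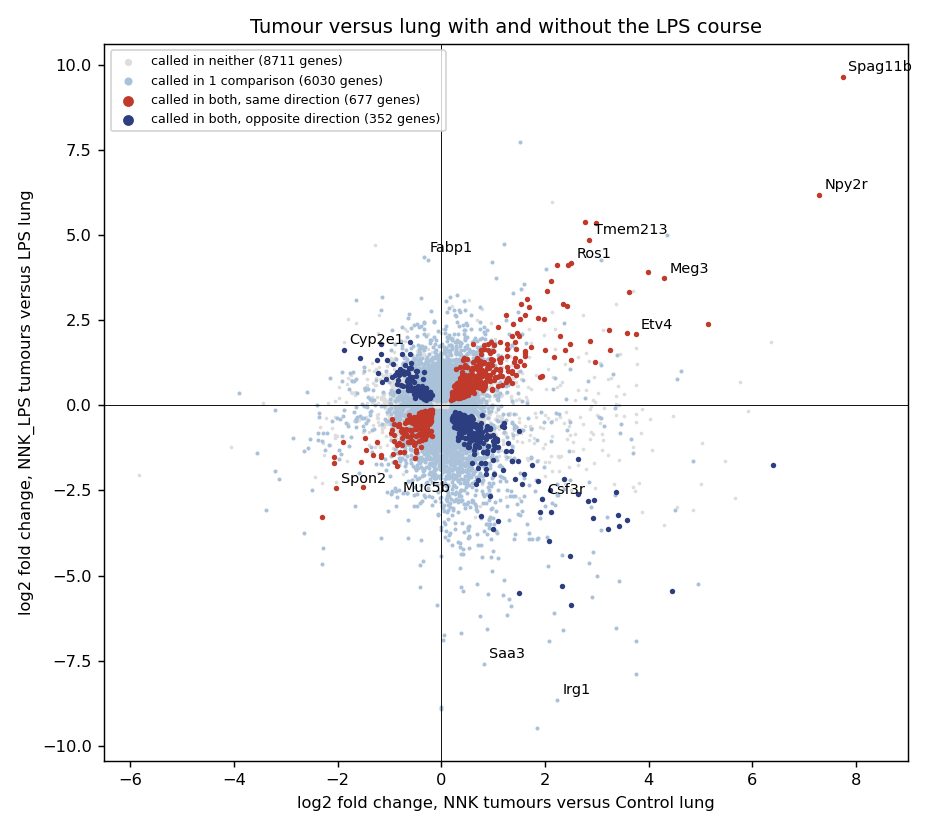
Log2 fold change of NNK tumours over Control lung (horizontal axis) and of NNK_LPS tumours over LPS lung (vertical axis) for the 15770 genes tested, coloured by where they were called, with 677 genes called in the same direction in both and 352 in opposite directions. Spag11b, Npy2r, Meg3, Ros1 and Etv4 lie high in both, while Irg1 and Saa3 lie low on the vertical axis only.

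Genes that marked tumour tissue with and without LPS included Ros1, with log2 fold changes of 4.19 ± 0.44 here and 2.50 ± 0.40 for NNK against Control (adjusted p = 0.00314). Meg3 had 3.73 ± 0.84 and 4.30 ± 0.87 (adjusted p = 0.00777), and Etv4 had 2.10 ± 0.36 and 3.75 ± 0.42 (adjusted p = 0.000378). In the other direction Spon2, a secreted matrix protein gene, had -2.43 ± 0.42 and -2.03 ± 0.40 (adjusted p = 0.00691), with 4.91, 1.51 and 7.06 CPM in NNK_LPS tumours against 27.0, 23 and 23.5 CPM in LPS lung. Tff2, a trefoil peptide of mucous cells, had -3.28 ± 0.61 and -2.31 ± 0.68 (adjusted p = 0.035). Each of these genes was called in the same direction with either lung as the reference, although the difference of differences was called for Ros1 (1.68 ± 0.58, adjusted p = 0.0443) and Etv4 (-1.65 ± 0.57, adjusted p = 0.0408).

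Inflammatory genes were called for the difference of differences in large numbers. Of the 27 cytokines and chemokines 2 were called higher and 0 lower in NNK tumours against Control lung, and for 22 of them the difference of differences was called lower. Il1b was higher in NNK tumours than in Control lung, 18.1, 29.2 and 15.4 against 6.60, 5.87 and 9.55 CPM (1.5 ± 0.41, adjusted p = 0.0273), and its difference of differences was -7.01 ± 0.59 (adjusted p = 2.07e-06). For interferon-stimulated genes 0 of 24 were called without LPS and all 24 were called lower in the difference of differences. Of neutrophil markers 11 of 18 were called higher in NNK tumours than in Control lung, and 14 were called lower in the difference of differences. Csf3r stood at 67.1, 86.0 and 30.7 CPM in NNK tumours and 10.7, 9.00 and 28.0 CPM in Control lung (1.94 ± 0.48, adjusted p = 0.0187).

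For alveolar type 2 markers the 2 comparisons pointed the same way, with 12 of 22 called higher and 0 lower without LPS, and 6 were called higher and 2 lower in the difference of differences. Sftpb was higher by 0.76 ± 0.13 in NNK tumours (adjusted p = 0.00345) and by 1.64 ± 0.13 in NNK_LPS tumours, a difference of 0.88 ± 0.18 (adjusted p = 0.00171). Of 13 club cell markers 10 were called lower and 0 higher in NNK tumours, and 6 were called higher and 0 lower in the difference of differences. Cbr2 was lower in NNK tumours than in Control lung, with -0.58 ± 0.13 (adjusted p = 0.0129) and higher in NNK_LPS tumours than in LPS lung, a difference of 1.84 ± 0.19 (adjusted p = 7.08e-06).

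LPS lung and NNK_LPS tumours can each be set beside Control lung, and since both comparisons use the same Control libraries only their own values are given. Against Control, 7890 genes (50%) were called in LPS lung, 3993 (25.3%) higher and 3897 (24.7%) lower. In NNK_LPS tumours 3876 (24.6%) were called, 1886 (12%) higher and 1990 (12.6%) lower. Of the 27 cytokines and chemokines 25 were called higher in LPS lung and 3 in NNK_LPS tumours. Of the 24 interferon-stimulated genes 24 were called higher in LPS lung and 3 in tumours. Of 14 plasma cell markers 13 and 11 were called higher, and of 160 immunoglobulin variable segments 117 and 91. Of 19 MHC class I genes 19 and 14 were called higher, and of 11 MHC class II genes 10 and 9. Of 22 alveolar type 2 markers 4 were called higher and 9 lower in LPS lung, and 17 higher and 1 lower in tumours. Of 13 club cell markers 10 and 11 were called lower.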

How the data were processed

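Lung RNA from 21 libraries in 7 groups of 3 was sequenced after extraction with RNeasy and library making with the TruSeq RNA Sample Preparation Kit version 2, per the labels' protocols. The authors deposited a table of raw read counts per gene symbol, with genome build mm10 per the submitters' processing notes. Not given in the sources used here were the aligner, the counter, the annotation and whether strand was used, so overlapping, antisense and near-identical genes (Gbp, Oas, H2, Saa, Cyp4a12 and immunoglobulin genes) are uncertain. From the counts, edgeR 4.0.16 (R 4.3.3) fitted all 7 groups with a quasi-likelihood model after TMM scaling. Its filterByExpr step (minimum count 10) kept 15770 genes. Adjusted p-values are Benjamini-Hochberg over these genes, and the SE is the fold change divided by the root of F. The fit was tested on simulated data. DESeq2 1.42.0 and the other settings are given at the end. Counting intervals and floors cover counting error only, at 95%, with a floor of 3 counts over a group.

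The members and the 44 gene lists were chosen with earlier results of these data known. Named genes were those with the largest differences (12 in each direction without overlap and with a mean of at least 1 CPM), up to 4 called members with the smallest adjusted p per list, and those with the largest values shared with, or different from, the comparison without LPS (8 and 6 in each direction). Other members, such as Cxcl9, Cxcl10, Rsad2, Isg15, Tap1, B2m, Igj, Ighg1, Ighm, Muc5b, Dbp, Arntl, Areg, Il18, Il17a, Cxcr1, Marco, S100a9, Scgb1a1 and every member given as not called, were chosen after their values were seen. Replicate numbers come from the label descriptions (the titles carry other numbers) and did not pair the libraries of the 2 groups, with correlations of deviations of -0.037, 0.0624 and -0.0201.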

Additional observations from a re-analysis of the deposited data

Results flagged for a closer look

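The difference between the tumour-to-lung difference under LPS and that without LPS was called by edgeR for 3955 genes, by an interaction term. Of the genes named by size or by this difference, 20 are listed because their tumour-to-lung log2 fold changes differed between the 2 settings at an adjusted p under 0.05. The values below are that difference on the log2 scale.

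Higher under LPS were Fabp1 (4.68), Cyp4a12b (4.52), Alb (3.55), Cyp2e1 (3.52), Bex2 (3.24), Htr2c (2.98) and Ros1 (1.68). Fabp1 and Bex2 were counted in Control lung at 21.7, 14.4 and 13.0 CPM and 16.8, 17.0 and 9.94 CPM and were lowest in LPS lung. Lower under LPS were Cxcl11 (-11.64), Slc28a1 (-11.34), Irg1 (-10.89), Ubd (-10.19), Mrgpra2b (-9.90), Orm2 (-8.98), Gpr84 (-8.96), Saa3 (-8.42), Saa1 (-7.47), Ptx3 (-7.09), Cxcl5 (-6.92), Il6 (-6.92) and Cxcl2 (-6.79). Slc28a1, a nucleoside transporter, varied within groups, at 18.5, 1.34 and 0.194 CPM in Control lung and 23.5, 0 and 47.1 CPM in NNK tumours. Several of these genes had only a few counts in 1 group, where a fitted log2 value depends on the prior count and is no bound. Groups of 3 libraries were not tested for outlying libraries.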

How the results depend on the processing

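Against the 6024 genes called between tumours and LPS lung, other settings called 6029 (relative log expression scaling), 5623 (no filter on low counts), 6187 (DESeq2), 5273 (the 2 groups alone) and 3979 (term for library set, a split known from earlier work on these data), and the libraries of the higher ratio alone called 1839, with the lone LPS library assumed to vary like the other groups. Leaving out 1 library gave 4699 to 5594. Of the 6024 genes 3765 stayed called with the set term. Its fold change, like that of the higher-ratio libraries, sets the tumours against LPS lung 3, so fewer LPS libraries bear on each call. How much of the loss comes from this was not tested. For NNK against Control (2064), leaving out 1 library gave 490 to 1856, and for the difference of differences (3955), 3129 to 3882. With a replicate block the 3 counts were 6180, 2311 and 4080. Of 183 named genes 0 changed sign, in settings that reuse the same libraries. The call was lost for 14 of them with the set term, 12 without tumour 2 and 10 without LPS lung 3. The loss was largest in the higher-ratio libraries, where LPS has 1 library. Among the genes that lost the call there were Etv4, Npy2r, Cxcl13, Il7r, Per3, Wt1 and Foxj1. The depth, 14749381 to 17471990 counts per library, limits genes with a few counts per group.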

Other observations

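Among dendritic cell markers 1 of 14 was called higher and 4 lower in NNK_LPS tumours than in LPS lung. Cd209a, a lectin of monocyte-derived dendritic cells, was higher (1.69 ± 0.40 SE, adjusted p = 0.00292), while Ccr7 (-1.70 ± 0.31 SE, adjusted p = 0.000357), Fscn1 (-1.27 ± 0.23 SE, adjusted p = 0.000304) and Cd83 (-1.61 ± 0.31 SE, adjusted p = 0.000669), genes of mature migrating dendritic cells, were lower with Bst2. Without tumour 3 the number called higher was 2. Of 8 mast cell and eosinophil markers tested 2 were called higher, the mast cell protease Mcpt4 (1.26 ± 0.47 SE, adjusted p = 0.0422) and Siglec5, now Siglecf (1.84 ± 0.37 SE, adjusted p = 0.000982). Which cells carried the Siglec5 transcript was not tested. Mcpt4 lost the call without LPS lung 1, 2 or 3 (adjusted p = 0.0963, 0.061 and 0.12), without tumour 2 or 3 (0.089 and 0.103), with the term for library set (0.153), with the libraries of the higher ratio alone (0.314) and with a replicate block (0.0509). Of 10 smooth muscle markers 1 was called higher, Mylk (0.73 ± 0.11 SE, adjusted p = 8.11e-05), and 2 without tumour 2.

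A few genes known mainly from other organs were counted in tumours. Alb, which encodes serum albumin, gave 98 counts over the NNK_LPS tumours and 3 over the LPS lung libraries, a ratio of 29.1 with a 95% counting interval of 9.68 to 144. Cyp4a12b, a fatty acid hydroxylase gene of liver and kidney, stood at 5.85, 8.79 and 5.58 CPM in NNK_LPS tumours, 0.143, 0.341 and 0.539 CPM in LPS lung and 4.85, 6.26 and 7.23 CPM in Control lung, so LPS lung was the low group. Htr2c, a serotonin receptor gene, stood at 2.14, 4.26 and 2.45 CPM, 0.358, 0.341 and 0.337 CPM and 2.88, 2.04 and 3.23 CPM in the same order, again with LPS lung lowest. Shisa6, a membrane protein gene, stood at 3.71, 5.25 and 3.59 CPM in NNK_LPS tumours and 0.287, 0.410 and 0 CPM in LPS lung, and at 5.68, 3.21 and 5.13 CPM in NNK tumours and 0.759, 1.34 and 0.839 CPM in Control lung, with each tumour group above its lung.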
